A study of Mus musculus with 6 samples.

Results

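The nuclear factor I (NFI) family consists in the mouse of the 4 genes Nfia, Nfib, Nfic and Nfix, and their accessible chromatin was examined in cultured adult neural stem cells (NSCs). The members were taken as the paralogs of the family and not by a measured value, though with earlier results of these data known. Every ATAC-seq peak that overlapped a gene body or the 100 kb on either side of it was taken, for these 4 of the 21938 protein-coding genes of the annotation. ATAC-seq inserts sequencing adapters into open chromatin with a transposase, and a peak is a stretch with more insertions than the local background. The 6 libraries came from NSCs of the mouse brain subependymal zone (SEZ), the adult germinal niche along the lateral ventricle, of animals aged 10 weeks. Proliferating cultures (PROLIF, replicates 1, 2 and 4) were grown for 2 days with mitogens, and cultures at the start of differentiation (DIFF, replicates 1, 2 and 4) were taken 1 day after the change to medium with serum and without mitogens. Every library carried the same genotype, a CRISPR-Cas9 mutation of SRR2, an enhancer of the stem cell factor gene Sox2, so that the comparison was between 2 states of mutant cells; wild-type libraries were not analysed here. The labels do not say whether replicates came from separate animals, and the p-values measure the spread between these libraries. Serum and mitogen changed together, and their parts cannot be told apart.

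NFI proteins bind DNA as dimers at a palindrome whose arms read TTGGC and GCCAA, and also bind a single arm. In the developing nervous system Nfia and Nfib are induced in radial progenitors at the onset of gliogenesis, Nfia acting with SOX9, a SOX-family factor. Nfix is known for its roles in postnatal neural stem cells of the ventricular and hippocampal niches, and Nfic for its role in tooth root formation. AP-1, a dimer of FOS and JUN proteins that acts downstream of growth factor signalling, binds TGACTCA, and its motif is marked beside that of NFI in the sequences shown here.

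The lists held 59792 to 82552 peaks in PROLIF and 70578 to 87728 in DIFF on the assembled chromosomes. Within each list, a peak was given a percentile by its −log10 p, so that 90 means stronger than 90% of the peaks of that library. The background pileup recovered from the peak statistics was 2.85 to 2.97 in PROLIF, 2.96 and 3.63 in DIFF replicates 2 and 1, and 6.01 in DIFF replicate 4, which also had the longest list. A place without a peak was therefore below a calling limit that differed between libraries, not shown to be closed. In bulk cultures, a change in the share of cells that open a region and a change in each cell cannot be told apart. Promoters of 7 of 8 neural stem and progenitor markers had a peak in all 6 libraries, and Slc1a3 had one in 2 PROLIF and 3 DIFF libraries. Among lineage controls, a promoter peak in all 6 libraries was present for 2 of 6 microglia genes (Csf1r and P2ry12), 1 of 4 endothelial genes (Kdr), 3 of 5 neuron genes, 2 of 4 oligodendrocyte genes and the ependymal gene Foxj1. Of all 21938 protein-coding genes, 62.9% had a promoter peak in all 6 libraries, so that such a peak does not by itself show a cell type. No library had a promoter peak at Cx3cr1, Spi1, Cldn5, Cdh5, Tek, Dcx or Mag. P2ry12 and the stem cell marker Nes ranked higher in PROLIF, and the neuron genes Snap25 and Tubb3 ranked higher in DIFF, as percentiles that did not overlap between the states. Nes overlapped with percentiles by fold enrichment, and Snap25 overlapped with lists of equal length. The part of other cell types in the results that follow was not tested.

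The sequences that follow are those of the strongest promoter region of each gene, from the GRCm38 reference, 5′ to 3′ along the gene's strand. Each has 201 bases centred on the strongest summit, except for Nfix, where the bases directly upstream of an internal start of the gene were taken from the same region. The Nfib, Nfic and Nfix stretches belong to starts inside the gene. Capitals mark the NFI half-site (TTGGCA, or TGCCAA on the other strand) and the AP-1 motif (TGACTCA or TGAGTCA).
Nfia promoter, chr4:97772245-97772445, plus strand: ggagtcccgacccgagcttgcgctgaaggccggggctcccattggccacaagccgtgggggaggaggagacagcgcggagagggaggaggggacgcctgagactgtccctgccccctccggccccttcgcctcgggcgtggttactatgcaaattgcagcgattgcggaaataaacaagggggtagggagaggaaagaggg
Nfib internal promoter, chr4:82506389-82506589, minus strand: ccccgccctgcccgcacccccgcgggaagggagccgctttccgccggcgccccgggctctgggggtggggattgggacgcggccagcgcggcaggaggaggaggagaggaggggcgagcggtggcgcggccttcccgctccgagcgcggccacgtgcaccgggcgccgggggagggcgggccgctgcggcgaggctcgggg
Nfic internal promoter, chr10:81407666-81407866, minus strand: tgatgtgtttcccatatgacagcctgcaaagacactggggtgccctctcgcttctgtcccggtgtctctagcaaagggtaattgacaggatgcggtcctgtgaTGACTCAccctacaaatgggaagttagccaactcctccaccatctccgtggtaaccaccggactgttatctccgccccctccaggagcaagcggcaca
Nfix internal promoter, chr8:84774370-84774570, minus strand: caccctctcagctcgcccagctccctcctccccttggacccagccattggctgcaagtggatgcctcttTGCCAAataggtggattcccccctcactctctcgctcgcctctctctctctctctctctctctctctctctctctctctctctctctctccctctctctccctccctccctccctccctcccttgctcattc
The Nfib stretch had a GC content of 82.1% and 30 CpG dinucleotides, and the Nfia stretch 65.2% and 14. Of the 4 stretches, the Nfic one held an AP-1 motif and the Nfix one an NFI half-site.

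The second set shows the regions whose presence or rank differed most between the states. It holds the region found in PROLIF alone, the pair found in DIFF alone with the highest lowest percentile, the pair with the largest percentile difference in each direction, and the remaining AP-1 region that ranked higher in PROLIF. The last 5 were chosen after their values were seen.
Nfia intron, PROLIF alone, chr4:97794959-97795159, plus strand: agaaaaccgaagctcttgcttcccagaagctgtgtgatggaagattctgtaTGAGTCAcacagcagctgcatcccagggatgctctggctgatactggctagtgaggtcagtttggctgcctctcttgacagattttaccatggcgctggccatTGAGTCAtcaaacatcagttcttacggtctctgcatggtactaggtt
Nfib upstream, DIFF alone, chr4:82762570-82762770, minus strand: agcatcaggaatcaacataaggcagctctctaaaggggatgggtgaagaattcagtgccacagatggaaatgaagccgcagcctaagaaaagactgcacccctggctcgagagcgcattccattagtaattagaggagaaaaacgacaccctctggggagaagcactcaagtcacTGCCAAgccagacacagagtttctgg
Nfia intron, DIFF alone, chr4:97954082-97954282, plus strand: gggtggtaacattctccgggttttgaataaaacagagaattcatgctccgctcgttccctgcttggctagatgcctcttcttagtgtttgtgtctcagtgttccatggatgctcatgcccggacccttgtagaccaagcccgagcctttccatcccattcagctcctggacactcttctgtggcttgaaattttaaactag
Nfib intron, stronger in PROLIF, chr4:82435806-82436006, minus strand: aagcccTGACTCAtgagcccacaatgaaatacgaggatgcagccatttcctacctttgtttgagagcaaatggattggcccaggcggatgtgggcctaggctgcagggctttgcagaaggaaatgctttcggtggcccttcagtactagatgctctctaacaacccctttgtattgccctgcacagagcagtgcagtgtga
Nfib distant intron, stronger in PROLIF, chr4:82304315-82304515, minus strand: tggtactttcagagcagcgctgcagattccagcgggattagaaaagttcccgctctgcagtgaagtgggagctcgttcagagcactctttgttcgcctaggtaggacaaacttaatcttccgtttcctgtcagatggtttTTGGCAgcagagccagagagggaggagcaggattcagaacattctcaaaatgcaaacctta
Nfia intron, stronger in PROLIF, chr4:97910937-97911137, plus strand: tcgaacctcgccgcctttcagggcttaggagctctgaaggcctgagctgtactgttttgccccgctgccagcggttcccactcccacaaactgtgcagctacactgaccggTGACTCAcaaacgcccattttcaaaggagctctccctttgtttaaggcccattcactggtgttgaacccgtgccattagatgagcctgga
Nfia intron, stronger in DIFF, chr4:97894017-97894217, plus strand: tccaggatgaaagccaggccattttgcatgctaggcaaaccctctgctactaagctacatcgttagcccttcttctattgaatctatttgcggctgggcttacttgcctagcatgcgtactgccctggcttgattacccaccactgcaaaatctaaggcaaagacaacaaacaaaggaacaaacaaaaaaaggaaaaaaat
Nfic intron, stronger in DIFF, chr10:81435535-81435735, minus strand: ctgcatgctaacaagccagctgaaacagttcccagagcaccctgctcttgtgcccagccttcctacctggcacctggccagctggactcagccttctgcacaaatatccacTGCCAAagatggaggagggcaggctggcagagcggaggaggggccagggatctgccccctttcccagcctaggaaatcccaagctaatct
The stretch in PROLIF alone held 2 AP-1 matches and the first of the Nfib introns stronger in PROLIF held 1. The Nfia stretch stronger in PROLIF was shown because it holds the motif, so that these 8 stretches give no count of it.

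The 4 genes lie on 3 chromosomes. Nfia (ENSMUSG00000028565.18, chr4:97772734-98118874, plus strand) and Nfib (ENSMUSG00000008575.17, chr4:82290173-82705750, minus strand) are long, with bodies of 346 kb and 416 kb, and each window held 1 other protein-coding gene. Nfic (ENSMUSG00000055053.18, chr10:81396186-81455635, minus strand) and Nfix (ENSMUSG00000001911.16, chr8:84699876-84800344, minus strand) are shorter, at 59.5 kb and 100.5 kb, and shared their windows with 17 and 13 other protein-coding genes. A peak at a neighbour's start site is therefore part of these windows without being shown to act on the NFI gene.

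Merging the 6 lists gave 190 regions in the 4 windows, of 119719 in the genome. Nfia had 55 regions, Nfib 45, Nfic 44 and Nfix 46. Introns held 86 of them, promoters of other genes 42, sequence outside any gene promoter or NFI body 40, promoters of the NFI genes themselves 21 and an exon 1. A promoter here is the 3 kb on either side of a coding transcript's start. Nfia had 32 intronic regions of 55. In Nfib, 35 of 45 regions were intronic, while in Nfic and Nfix 20 of 44 and 21 of 46 lay at promoters of neighbours. A peak was present in all 6 libraries for 89 of the 190 regions (46.8%), against 33.5% of all regions. The share was 55.6% for Nfib, 52.3% for Nfic and 52.2% for Nfix, and 30.9% for Nfia, and no test of these shares was made.

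By class, the numbers of peaks in PROLIF and DIFF overlapped for the family. Its own promoters held 16, 18 and 12 peaks in PROLIF replicates 1, 2 and 4 and 15, 18 and 19 in DIFF, its introns 65, 57 and 54 against 66, 64 and 74, and distal sequence 25, 20 and 16 against 21, 19 and 28. Nfia introns held 18, 16 and 13 peaks in PROLIF and 18, 22 and 28 in DIFF, where the states touched at 18. Nfib introns held 31, 26 and 28 against 30, 27 and 30. In Nfix, distal peaks numbered 4, 3 and 4 in PROLIF and 6, 5 and 7 in DIFF, and peaks at neighbours' promoters 13, 12 and 13 against 14, 16 and 17, both without overlap in raw number. Nfic introns held 5, 4 and 5 against 6, 5 and 5. These numbers were not scaled to list length, which was longest in DIFF replicate 4. No share over all genes is given for them, so that the lack of overlap at Nfix is a description.

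**Figure D1:**
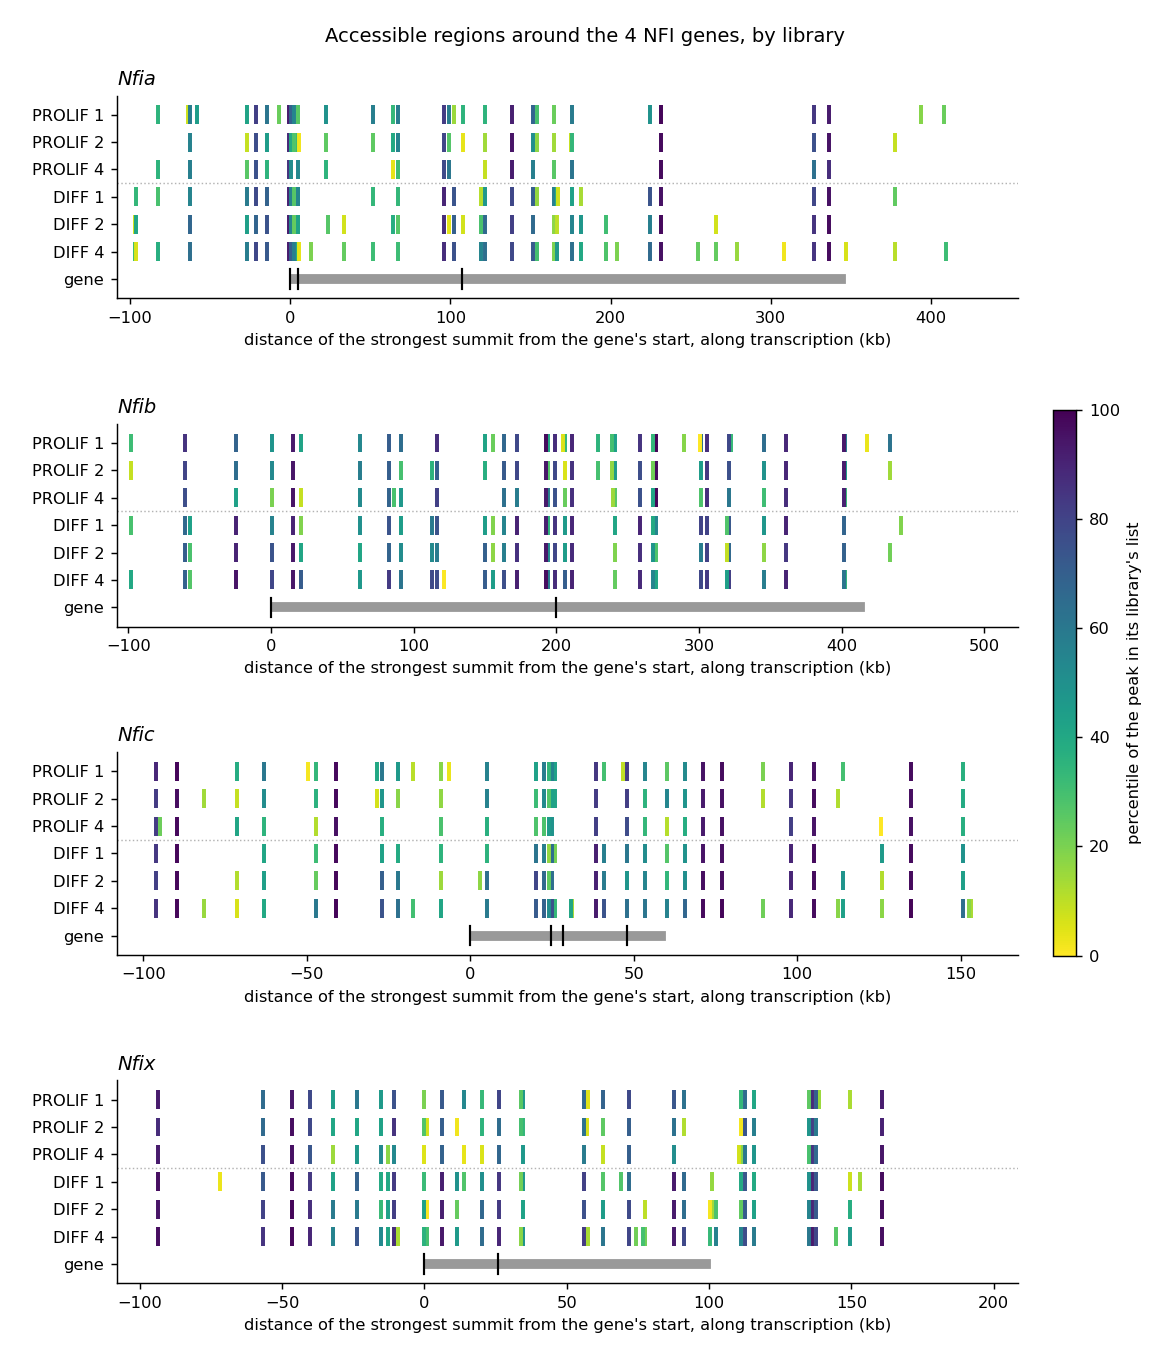
Each tick is a region with a peak in that library, placed by the distance of its strongest summit from the gene's start along transcription (kb), and its colour gives the percentile of the peak in that library's list (0 to 100). Grey bars are gene bodies and black marks are starts of coding transcripts. Of the 190 regions 89 stand in all 6 rows, and Nfia ranges from 22 peaks in PROLIF replicate 4 to 45 in DIFF replicate 4.

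The gene bodies were densely accessible. Per 100 kb of body, the mean over the 6 libraries was 6.79 peaks for Nfia, 7.66 for Nfib, 17.4 for Nfic and 13.6 for Nfix, and the median of the 5007 protein-coding genes of 50 kb or more was 3.44. These densities lay above those of 85.3%, 89.7%, 99.9% and 99.5% of such genes. Peaks at start sites within the body were counted, and the genes were not matched for length. Nfic, at 59.5 kb, was shorter than the median of 99.5 kb. Its own promoters held 6, 5 and 4 peaks in PROLIF replicates 1, 2 and 4, and 5, 5 and 7 in DIFF. The part of body length and of start sites in these placements was not tested. Nfia had 22, 22 and 15 body peaks in PROLIF replicates 1, 2 and 4, and 22, 27 and 33 in DIFF. Nfib had 35, 29 and 30 in PROLIF and 33, 31 and 33 in DIFF. In Nfic there were 11, 9 and 9 against 11, 10 and 12, and in Nfix 12, 14 and 10 against 14, 15 and 17. The ranges of the states touched or overlapped in each gene. By number of body peaks over the 6 libraries, the genes most like Nfia were Dner and Prdm16 (mean absolute difference 2.33 peaks each, among 1068 genes of comparable length). Those most like Nfib were Arhgap26 (1.67) and Snd1 (2.33), among 846. Those most like Nfic were Synj2 and Hmga2 (0.333 each), among 5720, and those most like Nfix were Cuedc1 (0.833) and Nol4l (1.17), among 3996.

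**Figure D2:**
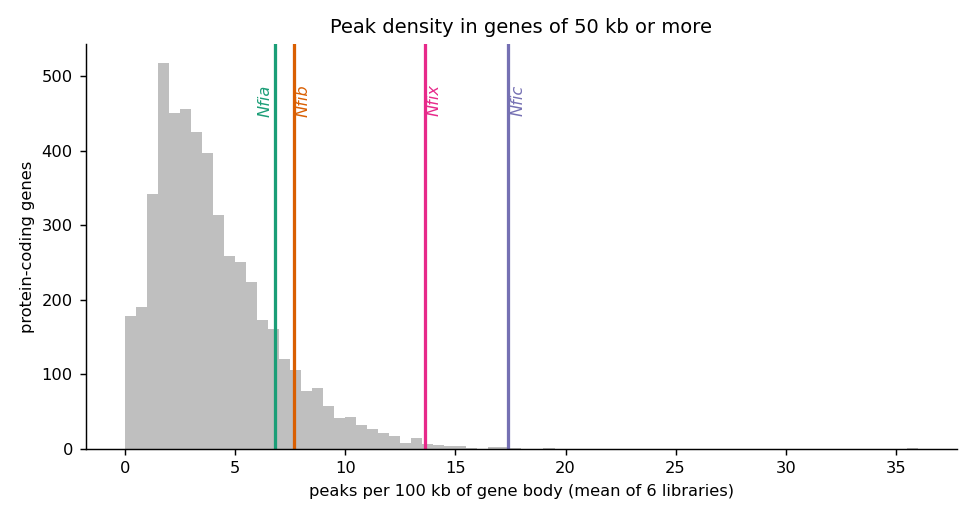
The grey histogram gives the number of protein-coding genes of 50 kb or more (y axis) by peaks per 100 kb of gene body, as the mean of 6 libraries (x axis). Coloured lines mark the NFI genes, at 6.79 (Nfia), 7.66 (Nfib), 13.6 (Nfix) and 17.4 (Nfic), all to the right of the median of 3.44.

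Over the whole windows, neither the share of each list's peaks nor their covered length separated the states, while the raw number of peaks did so for Nfix. Nfia had 34, 31 and 22 window peaks in PROLIF and 30, 34 and 45 in DIFF. Nfib had 40, 33 and 32 against 38, 35 and 37. Nfic had 34, 30 and 27 against 29, 29 and 37, and Nfix 30, 29 and 28 against 34, 34 and 38. Only for Nfix did every DIFF library exceed every PROLIF library in raw number. The share of all gene windows that stand apart in raw number is not given here, and the lists differed in length. Scaled to list length, the 4 windows together held 17.8 ± 0.964 of every 10000 PROLIF peaks and 18.3 ± 0.410 of every 10000 DIFF peaks (SD, n = 3; two-sided exact permutation test, p = 0.6). Peaks covered 54.2 ± 10.2 kb of them in PROLIF against 63.2 ± 7.57 kb in DIFF (p = 0.4 by the same exact test). Scaled shares overlapped between states in all 4 windows, while across 20059 gene windows 9.95% stood apart as higher in PROLIF and 10.9% as higher in DIFF. Covered lengths overlapped in all 4 windows as well, and 2.76% and 13.6% of gene windows stood apart by that measure. With 3 libraries a state the smallest p of this test is 0.1, so that no comparison could pass 0.05 by it. Over the 15 tests of the 4 genes and the family (peak share, covered length, promoter percentile), the adjusted p ranged from 0.6 to 0.7.

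The genes differed in which of their start sites was open. Start sites of coding transcripts within 1 kb of each other were joined, which gave 11 start sites, numbered along transcription, and the strongest peak within 1 kb of each was read in each library. Of the 11, 8 had a peak in all 6 libraries. Across the genome 14396 of 32526 start sites did, and of those 4.6% ranked higher in PROLIF and 25.5% ranked higher in DIFF, meaning that the 3 percentiles of one state all lay above the 3 of the other. Among the 8 NFI start sites, 1 ranked higher in PROLIF and 4 in DIFF. Each of these 5 reached the smallest p of the exact permutation test (p = 0.1, adjusted over 8 tests 0.16), which is short of 0.05. The change of rank toward DIFF at start sites was thus common in the whole series, and the count of 4 is to be read against it.

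Nfia site 1, the first base of the gene, was open in both states. Its percentiles were 92.5, 88.6 and 85.4 in PROLIF and 90.5, 91.9 and 92.3 in DIFF, with fold enrichments over local background of 8.23 to 10.97. The states overlapped (exact permutation test, p = 0.4). The region that gave them (chr4:97771973-97772648) ended 86 bases before the start. Nfia site 2, 4.87 kb further on and shared by 5 transcripts, was weaker, at 25.9, 31.7 and 53.9 in PROLIF and 53.9, 42.4 and 39.0 in DIFF. The start of E130114P18Rik, another protein-coding gene, lies 7 bases from that region, so that its peak cannot be given to one gene alone. Site 3, 107.4 kb into the gene, had a weak peak in 2 PROLIF libraries and 1 DIFF library.

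Nfib has an upstream start, used by a single coding transcript, and an internal one used by 6. The internal start (site 2) lay in a broad region of 2733 bases (chr4:82505268-82508000) with percentiles of 87.3, 78.3 and 75.0 in PROLIF and 84.8, 79.1 and 87.6 in DIFF, which overlapped (exact permutation test, p = 0.4). The upstream start (site 1) was weaker in PROLIF, at 48.2, 53.0 and 20.3, than in DIFF, at 55.8, 74.3 and 79.0. All DIFF percentiles lay above all PROLIF ones, with means of 40.5 ± 17.7 in PROLIF against 69.7 ± 12.3 (SD, n = 3, exact permutation test, p = 0.1). Fold enrichments there were 5.57, 6.17 and 3.90 against 5.40, 8.37 and 7.27, and these overlapped.

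Nfic was the member whose start sites moved in opposite directions. Site 4, the start of the transcript Nfic-205 in the 3′ part of the gene, ranked at 82.6, 81.9 and 77.3 in PROLIF and at 60.2, 47.8 and 63.3 in DIFF. Its fold enrichment was 10.2, 9.50 and 7.65 in PROLIF and 5.27, 5.34 and 5.17 in DIFF. Neither measure overlapped between the states, and the mean percentile dropped by 23.5 (80.6 ± 2.89 and 57.1 ± 8.17, SD, n = 3, exact permutation test, p = 0.1). Site 2, 24.6 kb from the gene's first base, went from 54.9, 43.0 and 48.7 to 64.5, 64.2 and 75.4, again without overlap. No library had a peak within 1 kb of site 1, the first base, or of site 3, where 3 coding transcripts begin. At the level of the whole gene, the strongest promoter peak had a mean percentile of 80.6 ± 2.89 in PROLIF against 68.6 ± 5.89 for DIFF (SD, n = 3, exact permutation test, p = 0.1, adjusted p over 15 tests 0.6). That peak lay at site 4 in PROLIF and at or within 3 kb of site 2 in DIFF, so that different starts were compared. Nfic was the only one of the 4 genes whose strongest promoter peak ranked higher in PROLIF without overlap. By the same measure 4.5% of 13807 promoters with a peak in all 6 libraries did so.

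In Nfix both start sites ranked higher in DIFF. Site 2, 25.98 kb into the gene and the stronger of the pair, had percentiles of 79.6, 64.8 and 67.3 in PROLIF and 84.2, 83.1 and 89.4 in DIFF. Site 1, from which 3 coding transcripts start, ranked low in every library, at 20.1, 27.3 and 5.32 in PROLIF and 32.1, 42.8 and 36.3 in DIFF. Neither overlapped between states by percentile (differences of 15.0 and 19.5, exact permutation test, p = 0.1 each), while fold enrichments did, at 8.51, 6.04 and 6.17 against 6.88, 7.77 and 7.98 for site 2. When percentiles were taken by fold enrichment in place of p, a choice added after seeing the data, both Nfix sites overlapped (exact permutation test, p = 0.2 and 0.3), and both Nfic sites and Nfib site 1 stayed apart (p = 0.1). Nfib site 1 overlapped when the lists were cut to equal length (exact permutation test, p = 0.2), and Nfix site 1 then had no peak in PROLIF replicate 1. Of the 13807 promoters, 25.9% ranked higher in DIFF as that of Nfix did. Compared with these promoters, the mean percentile of Nfia exceeded 61.9%, that of Nfib 39.1%, that of Nfix 31.0% and that of Nfic 25.4%.

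**Figure D3:**
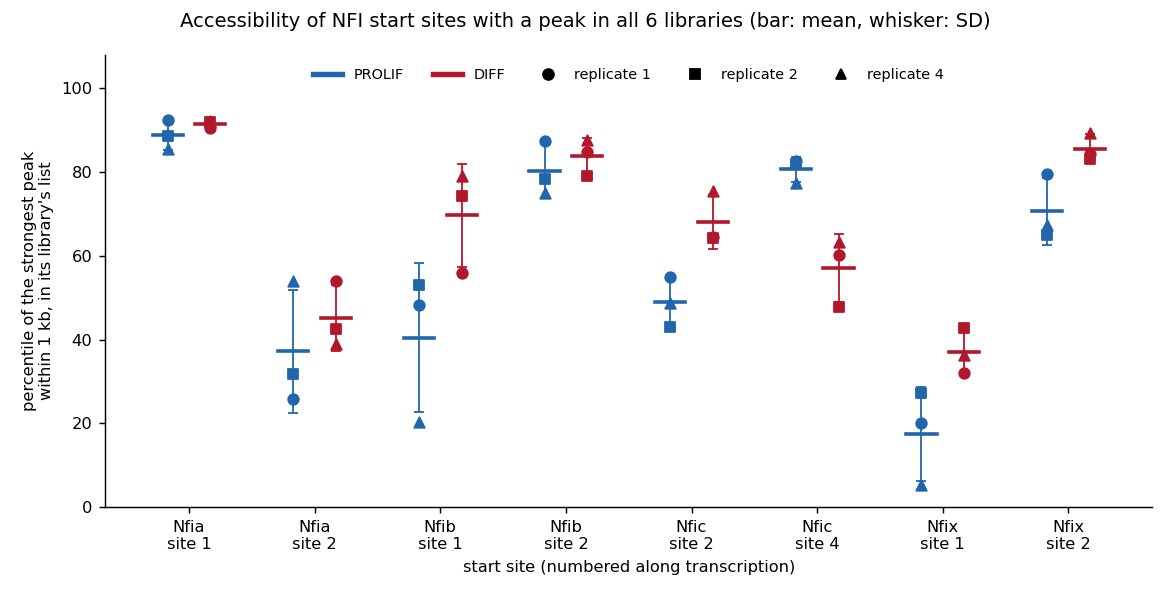
For the 8 NFI start sites with a peak in all 6 libraries (x axis), the percentile of the strongest peak within 1 kb is shown per library (y axis), with PROLIF in blue, DIFF in red, the replicate by marker shape, the mean as a bar and the SD as a whisker (n = 3). Nfic site 4 is the one site with all PROLIF points above all DIFF points, and at Nfib site 1, Nfic site 2 and both Nfix sites all DIFF points are above.

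Regions that were present in one state alone were few. A peak in all 3 PROLIF libraries and no DIFF library was found for 1 of the 190 regions (0.526%), and 1.79% of all regions were of that kind. The reverse was found for 7 (3.68%), and 3.48% of all regions were of that kind. Both shares were near or below those of the genome. The PROLIF region lay in an Nfia intron, 22.3 kb from the gene's start (chr4:97794980-97795153), at percentiles of 49.4, 24.9 and 35.4. Of the 7 DIFF regions, 4 were at Nfia, 2 at Nfib, 1 at Nfic and none at Nfix.

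The DIFF regions were of low to middle rank. At Nfia they lay 96.0 kb upstream (chr4:97676632-97676886, percentiles 33.7, 41.1 and 5.99) and in introns 119.0 kb (chr4:97891539-97891862, 11.2, 28.8 and 54.5), 166.8 kb (chr4:97939492-97939653, 37.7, 9.77 and 46.8) and 181.4 kb (chr4:97953892-97954259, 13.3, 46.9 and 40.1) from the start. At Nfib one was intronic (chr4:82386346-82386501, 27.6, 9.30 and 43.9) and one lay 56.9 kb upstream (chr4:82762443-82762739, 43.3, 28.7 and 26.6). The one at Nfic (chr10:81329637-81329856, 45.8, 11.7 and 17.5) was 906 bases from a start of Tbxa2r, the thromboxane A2 receptor gene. The highest percentile of these 8 regions in any library was 54.5, and the part of depth in their absence elsewhere was not tested. Leaving out PROLIF replicate 1 raised the DIFF count to 13 (6.41% of all regions) and leaving out DIFF replicate 1 raised it to 14 (5.98%), while lists cut to equal length gave 3 (3.93%). The PROLIF count became 4 without PROLIF replicate 4 (3.58% of all regions), 3 without DIFF replicate 2 (2.15%) and 2 without DIFF replicate 4 (2.95%).

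Among the 89 regions present in all 6 libraries, the rank of 38 stood apart between the states. In DIFF 31 ranked higher (34.8%), and in PROLIF 7 did (7.87%). For all 40102 such regions the shares were 21.1% and 11.7%. By gene, Nfix had 13 of 24 regions higher in DIFF and none higher in PROLIF, Nfic 8 and 1 of 23, Nfia 5 and 1 of 17, and Nfib 5 and 5 of 25. Regions of 1 window share neighbours and domains and are not independent, and the excess over the genome was not tested. Ranked by fold enrichment, the DIFF count fell to 21 (23.6%, against 18.4% of all such regions), with 7 in Nfix and 4 in Nfic. The PROLIF count was again 7 (7.87%, against 10.7%). Without PROLIF replicate 1 the DIFF count was 48 (53.9%), and 37.4% of all such regions were then higher in DIFF.

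The PROLIF side was led by Nfib. Its intronic region chr4:82435518-82436287, 269.8 kb from the upstream start, ranked at 98.5, 97.1 and 98.1 in PROLIF and at 54.2, 28.0 and 41.0 in DIFF. It was among the strongest few percent of peaks in every PROLIF library and in the middle or below in DIFF, with fold enrichments of 17.8, 13.5 and 15.3 against 5.41, 4.04 and 3.68. The mean percentile fell by 56.8 points, and 99.8% of the regions in all 6 libraries had a smaller difference. A further Nfib region, chr4:82304077-82304958, in an intron near the 3′ end of the gene, ranked at 93.4, 92.6 and 91.2 in PROLIF and at 68.1, 69.1 and 61.7 in DIFF. The Nfia region chr4:97910507-97911497, 138.3 kb into the gene at the first exon of a noncoding Nfia transcript, ranked at 91.1, 94.6 and 92.4 against 78.7, 81.6 and 78.4. In fold enrichment these 3 regions did not overlap between states either. The other PROLIF regions were the Nfic site 4 promoter and 3 Nfib regions whose mean percentile fell by 4.43 to 12.1 points.

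On the DIFF side, the strongest of the 5 Nfib regions by DIFF percentile was a region 24.7 kb upstream of the gene (chr4:82730104-82730792), which went from 68.6, 64.5 and 43.4 in PROLIF to 90.2, 90.3 and 94.9 in DIFF, with fold enrichments of 8.98, 7.87 and 5.20 against 13.4, 15.3 and 15.9. An Nfib intron region changed by about as many points from a lower level (chr4:82499332-82499934, 33.2, 5.82 and 23.3 to 45.8, 45.2 and 70.6).

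At Nfix, 4 of the 13 DIFF regions were intronic, 2 were its own promoters, 1 lay outside any promoter and the Nfix body and 6 lay at promoters of neighbours. The intronic region chr8:84712286-84712782, 87.8 kb into the gene, ranked at 73.3, 62.7 and 51.3 in PROLIF and at 93.2, 93.3 and 93.3 in DIFF. The intronic region chr8:84793829-84794944, 6.13 kb from the start, ranked at 72.3, 70.5 and 69.1 against 91.7, 91.8 and 93.5. Both ranked above 91 in each DIFF library and at 73.3 or below in each PROLIF library. Fold enrichments of the first overlapped, at 8.98, 6.76 and 5.44 in PROLIF against 8.71, 10.3 and 8.55 in DIFF. Those of the second did not, at 7.35, 6.97 and 6.32 against 8.33, 10.4 and 9.60. The neighbours included Ier2, an immediate early response gene, with 3 regions, and Calr, the calreticulin gene, and Gcdh, a glutaryl-CoA dehydrogenase gene, with 1 each. At Nfia, 2 of the 5 lay upstream of the gene and 3 in introns, led by chr4:97893686-97894821, which went from 35.2, 14.3 and 8.77 to 46.6, 66.2 and 64.2. At Nfic, the intronic region chr10:81435355-81435736 went from 43.2, 31.8 and 27.9 to 61.6, 79.2 and 71.8. These regions were picked for their lack of overlap, and their values are a description.

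**Figure D4:**
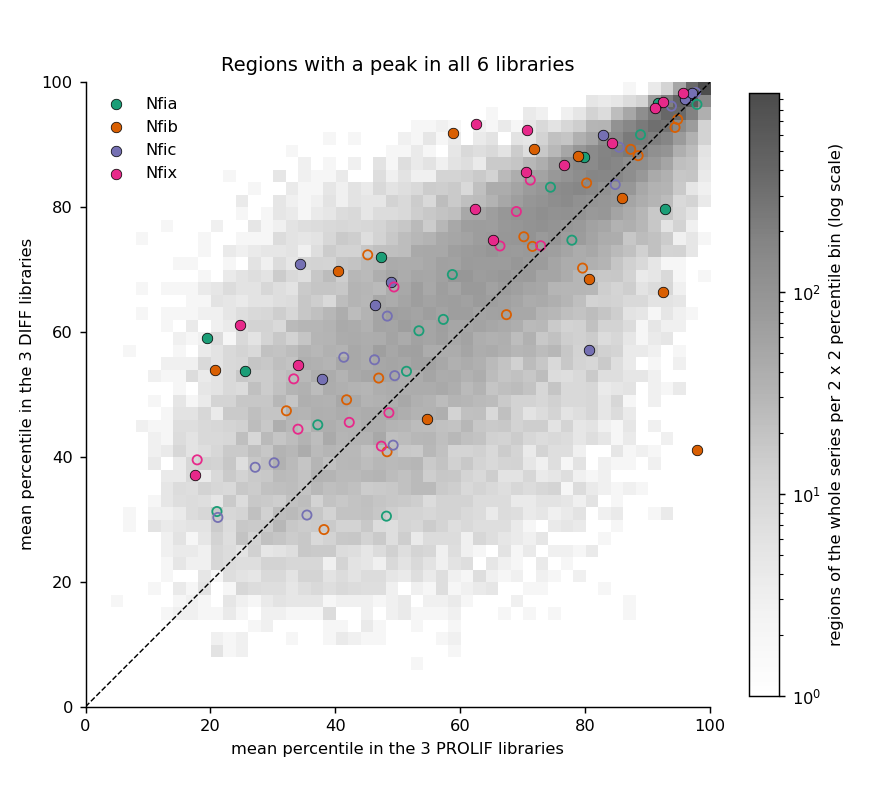
Each coloured point is an NFI region with a peak in all 6 libraries, by its mean percentile in the 3 PROLIF libraries (x axis) and in the 3 DIFF libraries (y axis). Filled points have percentiles that do not overlap between states, open points have percentiles that do, grey squares count all 40102 such regions on a log scale, and the dashed line marks equal rank. The Nfib point far below the line is the intronic region with mean percentiles of 97.9 and 41.1, and the filled Nfix points all lie above the line.

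Several strong regions were of like rank in both states. The strongest outside neighbours' promoters was an Nfia intron region 231.6 kb into the gene (chr4:98003751-98004813), at 98.6, 97.6 and 97.5 in PROLIF and 95.4, 97.7 and 96.0 in DIFF. In Nfib, an intron region 15.3 kb from the upstream start (chr4:82690033-82690771) ranked at 93.3, 94.5 and 95.3 against 90.5, 93.7 and 94.0, and one 7.18 kb from the internal start (chr4:82512948-82513613) at 97.1, 94.2 and 93.0 against 91.8, 93.4 and 96.8. The percentiles of these 3 regions overlapped between states, and 51 of the 89 regions overlapped in all.

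Motifs were searched on both strands in the 201 bases around the strongest summit of each region. AP-1 (TGACTCA) was found in 5 of the 190 NFI regions (2.63%) and in 5.76% of all 119719 regions. Of those 5, 1 was the PROLIF region of Nfia and 3 ranked higher in PROLIF, namely the Nfib intron region of largest difference, the Nfia intron region at 138.3 kb and the Nfic site 4 promoter. The remaining one, at Nfia, belonged to neither set. None of the 31 regions that ranked higher in DIFF and none of the 7 found in DIFF alone had the motif. In the whole series the share was 14.2% of regions ranked higher in PROLIF and 2.13% of those ranked higher in DIFF, so that this difference was not particular to the NFI genes. Of all regions found in PROLIF alone 27.8% held the motif, and of all found in DIFF alone 2.48%. With a share that low, its absence from 7 regions is no result about the NFI genes. In addition, 3 SOX matches (ACAAAG or ACAATG) stood in the Nfib intron region of largest difference. Counted as regions with any SOX match, the share was 28.9% of NFI regions and 29.1% of all regions. Such a match was found in 5 of the 7 NFI regions ranked higher in PROLIF, against 36.3% of all regions so ranked. It was found in 5 of the 31 ranked higher in DIFF, against 24.5% of all regions so ranked. No test of these shares was made.

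The NFI half-site TTGGCA was found in 38 of the 190 regions (20.0%), against 18.3% of all regions. It was not spread evenly among the members. At Nfib, 20 of 45 regions held it (44.4%), at Nfia 9 of 55 (16.4%), at Nfix 6 of 46 (13.04%) and at Nfic 3 of 44 (6.82%). Median GC content around the summits was 49.3% at Nfia and 49.8% at Nfib, and 60.9% at Nfic and 60.4% at Nfix, and the part of base composition in the shares was not tested. By state, 3 of the 7 regions higher in PROLIF, 5 of the 31 higher in DIFF and 2 of the 7 found in DIFF alone held it. Of all regions of these kinds, 20.2%, 19.8% and 32.8% held it. The full palindrome, TTGGC and GCCAA with 5 bases between them, was found in none of the 190 regions and in 120 of all 119719. The E-box CAGCTG was found in 19.5% of NFI regions and 19.6% of all regions. The E-box CAGATG was found in 13.7% and 17.3%.

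For genes connected with NFI factors in the nervous system, the promoters of 11 of 13 had a peak in all 6 libraries (84.6%, against 62.9% of all genes), and 4 of these 11 ranked higher in DIFF and 0 in PROLIF. Of all promoters with a peak in all 6 libraries, 25.9% ranked higher in DIFF and 4.5% in PROLIF. The 4 were Gfap, the astrocyte filament gene, Sox9, Apcdd1 and Ephb1, an ephrin receptor gene. Gfap had the widest difference of these, from 71.4, 71.2 and 67.1 in PROLIF to 85.1, 90.4 and 90.3 in DIFF. Sox9 had 84.9, 85.8 and 86.8 against 86.9, 87.3 and 88.2, and overlapped both with lists cut to equal length and with percentiles by fold enrichment. Apcdd1, a Wnt inhibitor gene, went from 92.5, 89.8 and 90.2 to 94.5, 94.4 and 95.2, and Ephb1 from 87.5, 88.2 and 86.2 to 92.4, 90.3 and 92.6. Gfap, Apcdd1 and Ephb1 stayed higher in DIFF under both of these choices, which were added after seeing the data, against 24.9% and 19.7% of all such promoters. Insc ranked higher in PROLIF with lists of equal length, as did 8.94% of all such promoters. Hes1, a Notch effector gene, Ezh2, a Polycomb methyltransferase gene, Fabp7, a radial glia gene, and Bbx, Zcchc24, Insc and Cntn2 overlapped between states with the full lists. Mmd2 had a promoter peak in 1 PROLIF library and 3 DIFF libraries, at 41.1 to 56.8 in DIFF. Gabra6, a GABA receptor gene of cerebellar granule cells, had none in any library.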

How the data were processed

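The 6 deposited ATAC-seq peak lists, 1 per library, were used. Per the labels and the study's methods, the authors trimmed reads with cutadapt and Trimmomatic, mapped them with Bowtie2 to GRCm38 (mm10), marked duplicates and called narrow peaks with MACS2 in each library at a false discovery rate of 0.05; tool versions and any shift of reads for the transposase are not given in the sources used here. The deposited lists give a score, a fold enrichment over local background and −log10 p and q values, with a lowest −log10 q of 1.30 to 1.31 per library, and no counts or read depths. Peaks off the assembled chromosomes (150 to 311 per library) were left out.

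Peaks were ranked by −log10 p within each list and merged across lists where they overlapped by 1 base. Genes came from GENCODE M21 and sequences from RefSeq GRCm38.p6, the build of the files. States were compared by two-sided exact permutation tests over 20 arrangements (smallest p 0.1), adjusted by Benjamini-Hochberg. A region was called when it had a peak in all libraries of a single state, or in all 6 with percentiles that did not overlap. Depth was approximated by the background pileup that gives each peak's fold and p under a Poisson model, as its 1st percentile over peaks. The members, gene lists and motifs were chosen with earlier results of these data known. Named were the members, every region found in one state alone, the genes of the lists (Sox9 to Gabra6, and markers of neural stem cells, microglia, endothelium, neurons, oligodendrocytes and ependyma) and 2 genes per member of closest body peak number, within 0.5 to 2 times its length. Regions named for their rank were chosen after their values were seen. The calls were tested on simulated lists with the same noise in every library, unlike these libraries of differing background pileup. All 200 planted regions of each kind were recovered. Of 19200 unplanted regions, 985 were called higher in PROLIF and 934 higher in DIFF.

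The states share replicate numbers, and the labels do not say what a number marks. Deviations from the state means correlated at 0.0549, 0.153 and 0.0123 for replicates 1, 2 and 4 and at -0.112 to 0.0614 for libraries of different number (39088 regions). Alternatives covered the q limit, list length, the strongest 20000 peaks, flank, promoter width, transcript set, overlap, each library left out, the replicate block and ranking by fold. Scripts ran in Python 3.11.15 with scipy 1.17.1 and pandas 2.3.3, on numpy 2.4.6, and sequences were read with samtools 1.23.1 through pysam 0.24.0.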

Additional observations from a re-analysis of the deposited data

How the results depend on the processing

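Of the alternatives run on the family's measures, 74 values kept their direction and stayed within 1.5 times or on the same side of the threshold, 19 counts moved further and 1 difference reversed. Among single genes and start sites 8 of 220 reversed. The exact permutation test used here cannot go below 0.1 with 3 libraries against 3, so that an unchanged side of the threshold says nothing about stability. The alternatives on start sites and gene lists and the ranking by fold were added after seeing the data.

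The promoter percentile difference of the family ranged from 0.433 to 5.06 with each library left out, and the covered length difference from 3.74 to 13.9 kb. The peak share difference (per 10000 peaks) ranged from -0.0279, without PROLIF replicate 1, to 0.868. With lists of equal length, 2 of 147 regions were in PROLIF alone and 3 in DIFF alone, against 3.31% and 3.93% of all regions. Of the 78 then in all 6 libraries, 8 ranked higher in PROLIF and 29 in DIFF (10.3% and 37.2%), against 17.4% and 20.6% of all such regions. With the strongest 20000 peaks, 26 of 55 regions were in all 6 libraries. In PROLIF alone 4 were found and in DIFF alone 4, against 5.70% and 4.63% of all regions. Of the 26, 2 ranked higher in PROLIF and 12 in DIFF (7.69% and 46.2%), against 14.9% and 20.9% of all such regions. A flank of 50 kb gave 4 of 160 regions in DIFF alone, against 3.48% of all regions. Requiring each library's peaks to cover 50% of a region left 50 regions in all 6 libraries and 4 in PROLIF alone. Of all regions, 2.41% were then in PROLIF alone. Leaving out 1 library gave 1 to 4 regions in PROLIF alone, 8 to 14 in DIFF alone, 32 to 48 ranked higher in DIFF and 8 to 10 ranked higher in PROLIF. Over all regions, 2.15% to 3.58% were then in PROLIF alone and 3.81% to 6.41% in DIFF alone. Of all regions with a peak in every library used, 21.9% to 37.4% ranked higher in DIFF and 12.3% to 18.2% in PROLIF.

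With the replicate block, where a region had to differ in at least 2 same-numbered pairs and go the other way in none, 7 regions were found for PROLIF alone and 25 for DIFF alone, against 6.30% and 11.1% of all regions. Ranked within pairs, 11 of 89 regions were higher in PROLIF and 39 in DIFF (12.4% and 43.8%), against 16.1% and 30.1% of all regions in all 6 libraries. The block gave p = 0.75 for each of the 3 family measures by exact sign flips, whose smallest p is 0.25. Start sites that stood apart had p = 0.25 by the same exact test.

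Differences of single genes, as DIFF minus PROLIF, reversed in 8 cases. The Nfib peak share difference (per 10000 peaks) was 0.279 with lists of equal length, and ranged from -0.466 to 0.0975 with each library left out, reversing without DIFF replicate 4. The Nfib covered length difference was -0.526 kb with the strongest 20000 peaks and ranged from -0.410 to 3.75 kb with each library left out, reversing without PROLIF replicate 4. The Nfic covered length difference was -0.391 kb with the strongest 20000 peaks and ranged from -0.180 to 1.42 kb, reversing without PROLIF replicate 4 and, at -0.0677, without DIFF replicate 4. With starts of every transcript, the Nfia promoter percentile difference was -1.59. The cause of these changes was not tested. Read depths are unknown, and the background pileup stands in for them, and DIFF replicate 4, with the highest pileup, was checked only by leaving it out and by lists of equal length.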
